A study of Rattus norvegicus with 6 samples.

Results

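Genes of the cardiac transcription factor network, 10 of the 22250 in the deposited table, are described here across cultured neonatal rat heart cells given the compound 3Cl-HBA or its solvent. They are Gata4, Gata6, Nkx2-5, Tbx5, Tbx20, Hand1, Hand2, Mef2a, Mef2c and Mef2d, chosen by name, and each name matched 1 row. All 10 had enough reads to be tested, as did 13903 genes in all. The cells, called neonatal rat cardiomyocytes in the labels, were isolated with collagenase from wild-type Sprague–Dawley rats 1 day old and grown with foetal bovine serum. Of 6 libraries, 3 were of cells treated with 40 µM 3Cl-HBA during 48 h and 3 of cells that received DMSO, with 48 h as the time label there too. The series title names activation of hydroxy-carboxylic acid receptor 1, a lactate receptor.

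These factors form the core circuit that builds and maintains heart muscle. GATA factors are zinc finger proteins, NKX2-5 is a homeobox protein, TBX5 and TBX20 are T-box proteins, HAND1 and HAND2 are basic helix-loop-helix proteins, and MEF2 proteins are MADS-box factors. They bind neighbouring sites in the control regions of heart genes, often contact each other, and GATA4, TBX5 and MEF2C together can push fibroblasts towards a heart muscle fate. Several of them are not limited to muscle cells, since fibroblasts and other cells of the heart also use GATA4, GATA6, TBX20 and HAND2.

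None of the 10 factors changed detectably with 3Cl-HBA. With edgeR's quasi-likelihood test, 0 of 10 had a Benjamini-Hochberg adjusted p under 0.05, against a background of 0.0% of the 13903 genes tested, and 0 of 10 had an unadjusted p under 0.05, against 5.11% of all genes. DESeq2 and limma-voom also gave 0 of 10 at an unadjusted p under 0.05, where DESeq2, run without the filter on low counts, gave 2.24% of 18107 genes. Without DMSO replicate 3 the edgeR count at an unadjusted p under 0.05 became 2 of 10, both lower. It stayed at 0 of 10 without any other single library. The share of all genes with such a p is not given here for limma-voom or for fits without a library. Those counts therefore have no background, and 5.11% belongs to the edgeR fit on all libraries. Genes called over the whole table numbered 8 in the fit without DMSO replicate 3, against 0 with all libraries. In 0 of 10 did the 3 treated libraries lie wholly above or below the 3 DMSO libraries, where 10.5% of all genes did so. The factors differed from each other by far more than the treatment moved any of them, with mean levels that spanned 20.1-fold.

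The libraries held 13240800 to 17202191 reads assigned to genes, and the treated libraries were the deeper ones. The labels number the libraries and leave unsaid whether these are separate cultures or litters, so the p-values measure only the spread between these samples, which may be technical. The labelled cell type carried its markers, as all 8 heart muscle markers were detected, with summed levels of 8757 to 8985 FPKM (reads scaled to gene length and library total) after 3Cl-HBA and 8619 to 9119 in DMSO. Markers of other heart cells were present as well. The 6 fibroblast markers summed to 3087 to 3127 FPKM after 3Cl-HBA and 3055 to 3207 in DMSO, and the 6 smooth muscle and pericyte markers to 1509 to 1537 after 3Cl-HBA and 1473 to 1618 in DMSO. Sums of 6 macrophage and leukocyte markers were 254.4 to 265.4 FPKM after 3Cl-HBA and 237.5 to 259.4 in DMSO, and those of 5 endothelial markers 161 to 166.7 after 3Cl-HBA and 152.7 to 176.1 in DMSO. The sums of 6 Schwann cell and neuronal markers were 63.56 to 75.92 FPKM after 3Cl-HBA and 63.5 to 64.23 in DMSO, and of 5 epicardial markers 27.62 to 28.64 after 3Cl-HBA and 26.54 to 28.3 in DMSO. The ranges of the treatments overlapped for each of these lists. By gene, log2 fold changes (3Cl-HBA minus DMSO) were above 0 for 6 of 6 macrophage and leukocyte markers, with a median of 0.107. They were above 0 for 3 of 3 tested Schwann cell and neuronal markers, with a median of 0.177. The same held for 4 of 8 heart muscle, 2 of 6 fibroblast and 2 of 6 smooth muscle and pericyte markers. It held for 3 of 5 endothelial and 3 of 5 epicardial markers, and for 49.8% of all genes. No marker on these lists was at 0 reads over all libraries, and 0 passed the test. In such mixed bulk RNA, fewer cells of a type and less RNA per cell cannot be told apart, and the share of each factor that came from muscle cells was not tested.

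**Figure D1:**
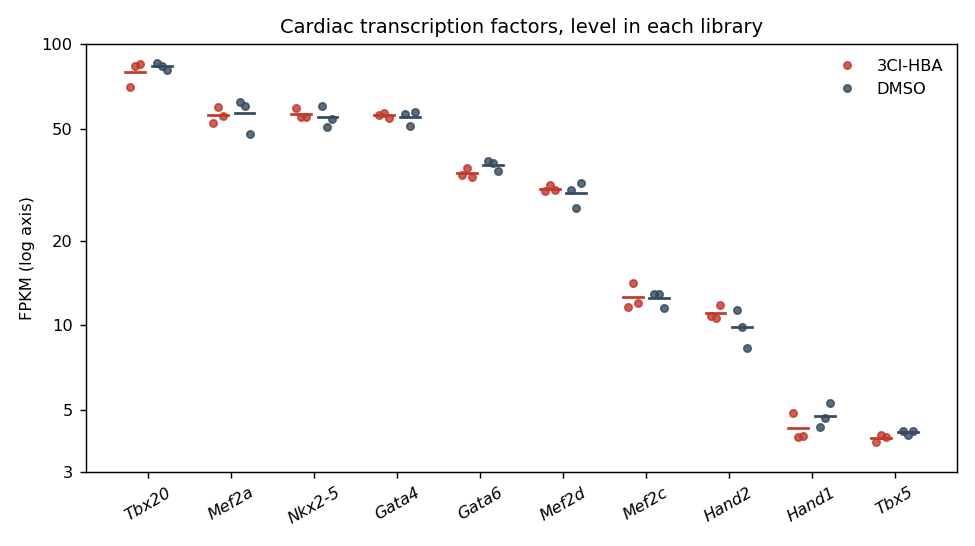
Level of each factor in FPKM on a log axis, with 1 point per library, 3Cl-HBA left of DMSO, and a bar at the mean of 3 libraries. The order of the factors runs from Tbx20, at 70.6 to 85.9 FPKM, to Tbx5, at 3.83 to 4.22, and the points of both treatments overlap for each factor.

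Tbx20, a T-box repressor and activator that adult mouse heart muscle needs for its function, was the most abundant of the 10. It had 70.56, 83.51 and 85.49 FPKM in 3Cl-HBA replicates 1 to 3 and 85.92, 83.87 and 80.8 FPKM in DMSO replicates 1 to 3 (ENSRNOG00000016181, chromosome 8, 25850962 to 25904570, minus strand; here and below, coordinates are those of the deposited table, whose genome build is not given in the sources used here). A single treated library, replicate 1, was low, and the other treated libraries lay among or near the DMSO ones. Its relative Tbx5, which drives conduction system and atrial genes, had the lowest mean FPKM, at 3.83, 4.082 and 4.01 FPKM after 3Cl-HBA and 4.218, 4.076 and 4.204 FPKM in DMSO (ENSRNOG00000001399, chromosome 12, 42097626 to 42148146, plus strand). Tbx20 therefore held 94.9% to 95.5% of the summed FPKM of this pair in every library. The range of Tbx5 overlapped that of Hand1, which was higher in 5 of 6 libraries.

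Mef2a, Nkx2-5 and Gata4 came next and could not be ordered among themselves. Mef2a, the MEF2 gene with the highest level, had 52.58, 59.65 and 55.56 FPKM after 3Cl-HBA and 62.31, 60.34 and 48.05 FPKM in DMSO (ENSRNOG00000047756, chromosome 1, 128209971 to 128341263, minus strand). Nkx2-5, among the earliest markers of the heart lineage, had 59.19, 55.02 and 55 FPKM after 3Cl-HBA and 60.25, 50.8 and 54.45 FPKM in DMSO (ENSRNOG00000020747, chromosome 10, 16635989 to 16638764, plus strand). Gata4, which activates natriuretic peptide and myosin genes, had 56.07, 57.2 and 54.56 FPKM after 3Cl-HBA and 56.69, 51.11 and 57.61 FPKM in DMSO (ENSRNOG00000010708, chromosome 15, 46386712 to 46432965, minus strand). Mef2a exceeded Nkx2-5 in 4 of 6 libraries, with a mean difference of 0.631 ± 6.31 FPKM (SD, n = 6), and Nkx2-5 exceeded Gata4 in 3 of 6, with 0.246 ± 2.72. By contrast, Tbx20 exceeded Mef2a in 6 of 6 libraries, by 25.3 ± 5.27 FPKM.

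Gata6 and Mef2d formed a middle tier below them. Gata6, which overlaps with Gata4 in heart muscle and also acts in smooth muscle, had 34.36, 36.45 and 33.78 FPKM after 3Cl-HBA and 38.59, 37.9 and 35.38 FPKM in DMSO (ENSRNOG00000023433, chromosome 18, 2416552 to 2446338, plus strand). Mef2d, the MEF2 gene tied to stress-induced remodelling in the mouse heart, had 30.11, 31.47 and 30.28 FPKM after 3Cl-HBA and 30.27, 26.11 and 32.23 FPKM in DMSO (ENSRNOG00000031778, chromosome 2, 187512164 to 187538026, plus strand). Gata4 exceeded Gata6 in 6 of 6 libraries by 19.5 ± 3.38 FPKM, and Gata6 exceeded Mef2d in 6 of 6 by 6 ± 3.39 FPKM.

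Mef2c and both HAND genes were lower still. Mef2c, required for heart looping and right ventricle formation in the mouse, had 11.63, 14.14 and 12.06 FPKM after 3Cl-HBA and 12.94, 12.95 and 11.53 FPKM in DMSO (ENSRNOG00000033134, chromosome 2, 11658568 to 11822787, plus strand). Hand2, which supports the right ventricle in the mouse embryo, had 10.83, 10.64 and 11.83 FPKM after 3Cl-HBA and 11.34, 9.838 and 8.314 FPKM in DMSO (ENSRNOG00000060448, chromosome 16, 36371489 to 36373546, minus strand). Hand1, its counterpart in the left ventricle, had 4.858, 4.015 and 4.029 FPKM after 3Cl-HBA and 4.343, 4.698 and 5.287 FPKM in DMSO (ENSRNOG00000002582, chromosome 10, 43250745 to 43253296, minus strand). The HAND levels rest on few reads, with 64 to 75 per library for Hand1 and 71 to 120 for Hand2, against 2486 to 3301 for Gata4. Mef2d exceeded Mef2c in 6 of 6 libraries by 17.5 ± 2.47 FPKM and Hand2 exceeded Hand1 in 6 of 6 by 5.93 ± 1.68, while the ranges of Mef2c and Hand2 overlapped, with Mef2c higher in 6 of 6 libraries, as did those of Hand1 and Tbx5, with Hand1 higher in 5 of 6. Levels between genes depend on the gene length in the deposited table, which was 6451 bases for Mef2c and 645 bases for Hand2. For Tbx5 and Hand1 the length was 3503 and 1057 bases, and Tbx5 had more reads, with 1271 over all libraries against 425. No other gene of the table overlaps any of the 10.

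**Figure D2:**
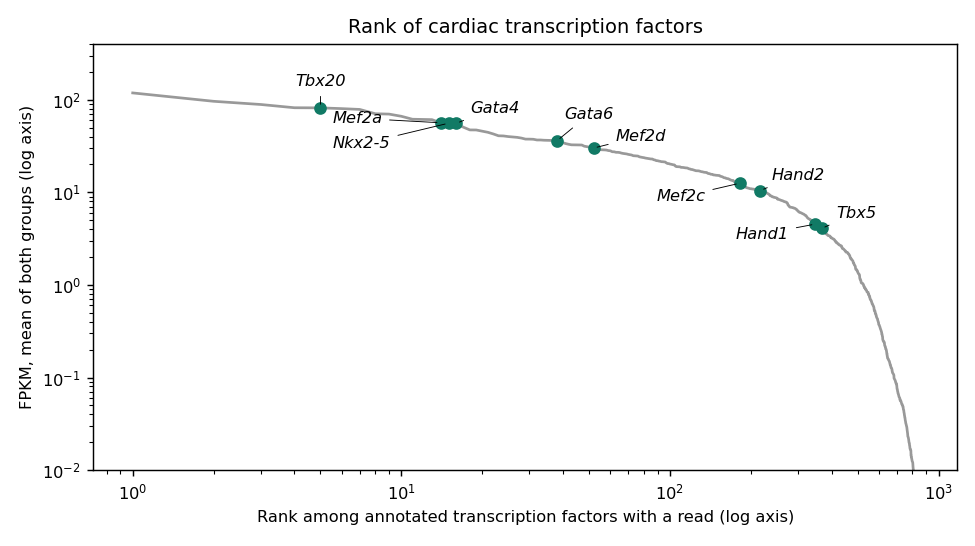
FPKM, as the mean of both group means, against rank for 840 genes annotated as transcription factors, both on log axes, with the 10 factors as points. Tbx20 is at rank 5, Mef2a, Nkx2-5 and Gata4 at ranks 14, 15 and 16, and Hand1 and Tbx5 at ranks 348 and 367.

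Most of the circuit was among the abundant transcription factors of these cells. Of 840 genes with a read that the deposited table annotates with DNA-binding transcription factor activity, Tbx20 ranked 5th by FPKM, after Atf4 (118 FPKM), Xbp1 (96.2), Stat3 (88.8) and E2f6 (81.9). The libraries of E2f6, at 79.31 to 83.84 FPKM, lay within the range of Tbx20, whose mean was 81.7 FPKM. Of the 10, 4 were in the top 20 and 6 in the top 60, a count that takes in Gata6 (rank 38) and Mef2d (rank 52). Mef2c and Hand2 ranked 182 and 217, and Hand1 and Tbx5 ranked 348 and 367. All 10 lay above the median of these 840 annotated factors, at 2.81 FPKM, and 8 of 10 above the median of the 18107 genes with a read, at 5.65 FPKM. Both medians take in genes with few reads. The filter on low counts kept 605 of the annotated factors and 13903 of all genes. The place of the 10 among the 605 is not given here, so Hand1 and Tbx5 may lie below the middle of those. Together the 10 took 4.91% to 5.15% of the summed FPKM of annotated factors after 3Cl-HBA and 4.92% to 5.29% in DMSO.

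**Figure D3:**
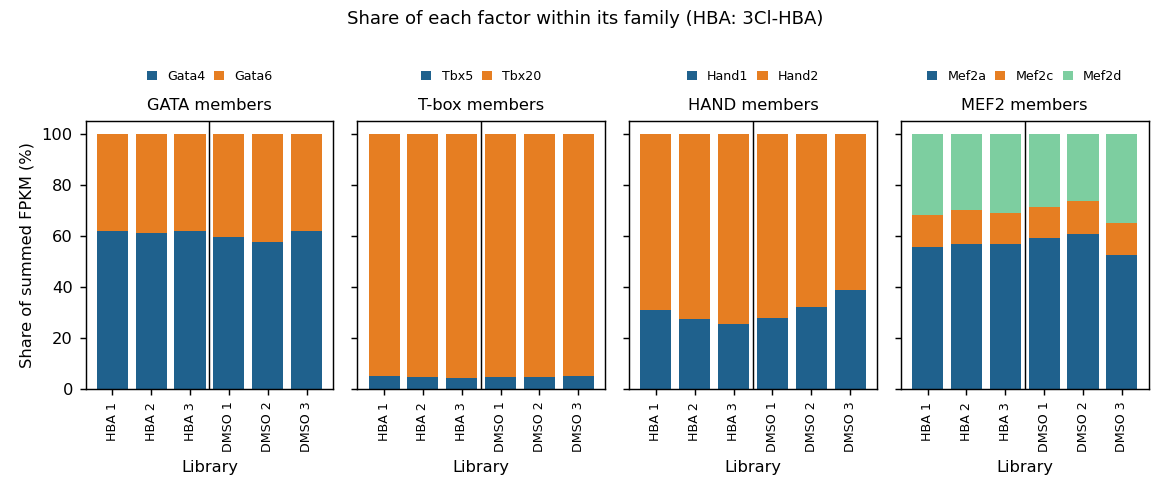
Share of each factor in the summed FPKM of the members of its family, in percent, as stacked bars for each library, with the 3Cl-HBA libraries left of the line and the DMSO libraries right of it. Tbx20 takes 94.9% to 95.5% of its pair, and the HAND and MEF2 bars differ most in DMSO replicate 3.

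Within each family the treated and DMSO libraries had overlapping shares. Gata4 held 61.6% ± 0.481 of the GATA4 and GATA6 total after 3Cl-HBA and 59.6% ± 2.27 in DMSO (SD, n = 3 each). Hand2 held 72.1% ± 2.82 of the HAND total after 3Cl-HBA and 67% ± 5.62 in DMSO. Mef2a, Mef2d and Mef2c held 56.4%, 30.9% and 12.7% of their total after 3Cl-HBA and 57.4%, 30% and 12.6% in DMSO. In DMSO replicate 3 the Mef2a share was lowest, at 52.3%, and the Hand1 share highest, at 38.9%. These shares were described and not tested, since with 3 libraries per group the smallest p of an exact permutation test is 0.1.

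The families also showed which relatives accompany these factors. Of 6 GATA genes in the table, Gata5, also a heart and endocardial factor, came after these, at 9.94 FPKM, while Gata2 and Gata3, better known from blood and other lineages, had 0.893 and 0.832 FPKM and the erythroid factor Gata1 had 0 reads. Nkx2-5 stood alone among 7 NKX2 genes, as the highest mean of the others was 0.0445 FPKM, and their highest value in any library was 0.203 FPKM, both for Nkx2-4. Of 17 T-box genes, the one nearest to Tbx20 was Tbx18, a marker of epicardium and its descendants, at 12.6 FPKM, so that Tbx5, at 4.07 FPKM, ranked below Tbx18, Mga and Tbx2 and close to Tbx10, at 4.12 FPKM. Mef2b, the other MEF2 gene, had 0.448 FPKM.

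Promoter sequences of 8 of the 10 genes were in the RefSeq promoter table for the rat assembly GRCr8. The 250 bases before the start of each were searched on both strands for short motifs that these families are known to bind. The motifs were GATAA for GATA factors, TNAAGTG for NKX2-5, AGGTGT for T-box factors, CTANNNNTAG for MEF2 and the E-box CATCTG for HAND proteins. No match of one motif overlapped a match of another in the promoters printed. Of the 8 promoters, 2 held a GATA motif, 1 a MEF2 motif, 1 the HAND E-box and 0 an NKX2-5 or T-box motif, and 5 held none. Over all 33469 promoters, 23.5% held the GATA motif, 3.41% the MEF2 motif, 14% the HAND E-box, 9.89% the NKX2-5 motif and 11.6% the T-box motif. The share of all promoters that held none of these motifs is not given here, so the count of 5 without a match has no background. The 3 promoters with a match are printed 5′ to 3′ up to the base before the start, with matches in capitals, because they are the ones where motifs of the circuit's families were found, those of a gene's own family included. That of Nppa, the atrial natriuretic peptide gene, is added as the most abundant of the heart muscle genes listed further on.
Mef2a, chr1:130392163-130392412, minus strand: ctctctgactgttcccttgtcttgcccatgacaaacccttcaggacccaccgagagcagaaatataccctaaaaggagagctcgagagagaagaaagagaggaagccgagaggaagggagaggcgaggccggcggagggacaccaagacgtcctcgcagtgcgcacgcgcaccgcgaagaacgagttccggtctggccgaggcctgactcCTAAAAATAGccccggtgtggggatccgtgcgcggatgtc
Hand2, chr16:37931489-37931738, minus strand: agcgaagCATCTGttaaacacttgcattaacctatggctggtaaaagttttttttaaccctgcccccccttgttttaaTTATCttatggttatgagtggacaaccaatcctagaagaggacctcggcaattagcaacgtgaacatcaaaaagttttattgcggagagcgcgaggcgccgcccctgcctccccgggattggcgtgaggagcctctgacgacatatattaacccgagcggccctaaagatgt
Tbx5, chr12:42395360-42395609, minus strand: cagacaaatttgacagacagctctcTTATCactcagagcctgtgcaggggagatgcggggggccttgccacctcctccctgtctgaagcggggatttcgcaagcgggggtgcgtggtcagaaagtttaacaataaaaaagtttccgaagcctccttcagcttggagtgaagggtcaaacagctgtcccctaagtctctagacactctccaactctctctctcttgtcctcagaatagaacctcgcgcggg
Nppa, chr5:163711934-163712183, plus strand: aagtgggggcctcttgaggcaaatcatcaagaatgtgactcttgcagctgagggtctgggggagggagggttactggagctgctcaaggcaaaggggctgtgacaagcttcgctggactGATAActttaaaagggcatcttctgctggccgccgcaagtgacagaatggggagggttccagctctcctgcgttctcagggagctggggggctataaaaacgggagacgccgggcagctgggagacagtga
The MEF2 match of Mef2a lay 40 to 31 bases before its start. The HAND E-box and the GATA match of Hand2 lay 243 to 238 and 172 to 168 bases before its start, the GATA match of Tbx5 225 to 221 bases and that of Nppa 131 to 127 bases. A match describes the letters and shows no binding. Tbx5 is on the minus strand in GRCr8 and on the plus strand in the coordinates of the deposited table. The promoters of the 8 factors had 48% to 73.2% G and C, against a median of 51.2% over all promoters.

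**Figure D4:**
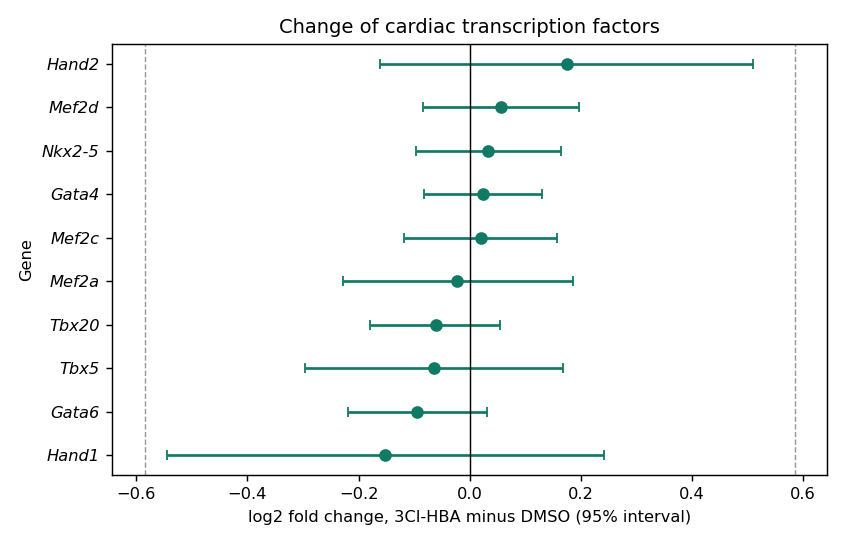
Log2 fold change of each factor, 3Cl-HBA minus DMSO, with its 95% interval from edgeR, and dashed lines at 1.5-fold in either direction. Each interval includes 0 and lies between the dashed lines, and the HAND genes have the widest.

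The fold changes between treatments were small and fell on either side of 0. Log2 fold changes, 3Cl-HBA minus DMSO, were above 0 for 5 factors and below 0 for 5, against 49.8% above 0 over all genes, and their median was -0.00139, against -0.00051 for all genes. The median absolute log2 fold change was 0.0587 for the 10 and 0.0692 for all genes. The 95% interval lay inside 1.5-fold for 10 of 10, against 80.9% of all genes, so a change larger than that was outside the interval for each factor, while changes within the interval were not excluded.

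Gata4, Nkx2-5 and Mef2c had log2 fold changes close to 0. Gata4 had 188 ± 4.83 CPM (reads scaled to the library total with TMM factors, without gene length) with 3Cl-HBA and 185 ± 12.2 CPM with DMSO, a log2 fold change of 0.0235 with an SE of 0.0522 (edgeR adjusted p 0.993; its 95% interval ran from -0.0816 to 0.129). Nkx2-5 was at 0.0335 (SE 0.0651) and Mef2c at 0.0195 (SE 0.0681), with fold intervals of 0.935 to 1.12 and 0.921 to 1.12. The signs of these 3 hung on single libraries. Without DMSO replicate 2, Gata4 and Nkx2-5 turned to -0.0307 and -0.0255, and Mef2c turned to -0.0763 without 3Cl-HBA replicate 2 and to -0.0338 without DMSO replicate 3.

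Gata6 had the smallest p of the 10, which did not pass. Its CPM were 75.3 ± 3.3 after 3Cl-HBA and 80.5 ± 3.39 in DMSO, a log2 fold change of -0.0947 with an SE of 0.062 (edgeR p 0.134 before and 0.983 after adjustment; the 95% interval ran from -0.22 to 0.0302). Of its 3 treated libraries, 2 lay below all DMSO libraries, and 3Cl-HBA replicate 2, at 79.13 CPM, lay above DMSO replicate 3, at 76.65 CPM. Its sign was the same under each of the 12 alternatives, with values of -0.132 to -0.0717 and adjusted p of 0.727 to 1. Without DMSO replicate 3 its value was -0.131 with an edgeR p of 0.0459 before and 0.727 after adjustment. In that fit 2 of the 10 factors, Gata6 and Mef2a, had an unadjusted p under 0.05, both lower after 3Cl-HBA. The share of all genes with such a p in that fit is not given here. Tbx20 had 177 ± 18.8 CPM after 3Cl-HBA and 185 ± 5.16 CPM in DMSO (log2 fold change -0.0617, SE 0.0577, edgeR adjusted p 0.984), and turned to 0.0225 without 3Cl-HBA replicate 1, its low library.

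For Mef2a and Mef2d a single DMSO library stood out. Mef2a had 190 ± 13 CPM after 3Cl-HBA and 193 ± 25.7 CPM in DMSO, where replicate 3 was at 163.9 CPM against 211.3 and 204.7 CPM in replicates 1 and 2. Its log2 fold change was -0.0223 (SE 0.0918, edgeR adjusted p 0.998). It became -0.13 without DMSO replicate 3 (edgeR p 0.0177 before and 0.606 after adjustment, and adjusted values between 0.606 and 1 in all alternatives) and turned to 0.0237, 0.0452 and 0.0196 without 3Cl-HBA replicate 1, DMSO replicate 1 and DMSO replicate 2. Mef2d had 65.5 ± 1.89 CPM after 3Cl-HBA and 63.1 ± 6.83 CPM in DMSO (log2 fold change 0.0558, SE 0.0696, edgeR adjusted p 0.986). Its lowest library was DMSO replicate 2, at 55.7 CPM, without which the value turned to -0.0286.

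The HAND genes, with the fewest reads of the 10, had the largest log2 fold changes in size and the widest intervals, and Tbx5 had the next widest interval. Hand2 had 7.17 ± 0.414 CPM after 3Cl-HBA and 6.34 ± 0.959 CPM in DMSO, a log2 fold change of 0.175 with an SE of 0.167 (edgeR adjusted p 0.984; the 95% interval ran from -0.161 to 0.51). Hand1 had 4.55 ± 0.488 CPM after 3Cl-HBA and 5.05 ± 0.521 CPM in DMSO, or -0.152 on the log2 scale with an SE of 0.196 (edgeR adjusted p 0.986; the 95% interval ran from -0.545 to 0.242). The HAND genes thus had opposite signs, and the 95% interval of each included 0. Tbx5 was at -0.0644 (SE 0.115, edgeR adjusted p 0.99), with 13.9 ± 0.525 CPM after 3Cl-HBA and 14.6 ± 0.297 CPM in DMSO. Signs of Hand1, Hand2 and Tbx5 were the same under each of the 12 alternatives. Without DMSO replicate 3, where Hand1 was highest and Hand2 lowest, their values were -0.0749 and 0.0694. Hand1 was at -0.241 without 3Cl-HBA replicate 1, and Hand2 at 0.287 without DMSO replicate 1.

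**Figure D5:**
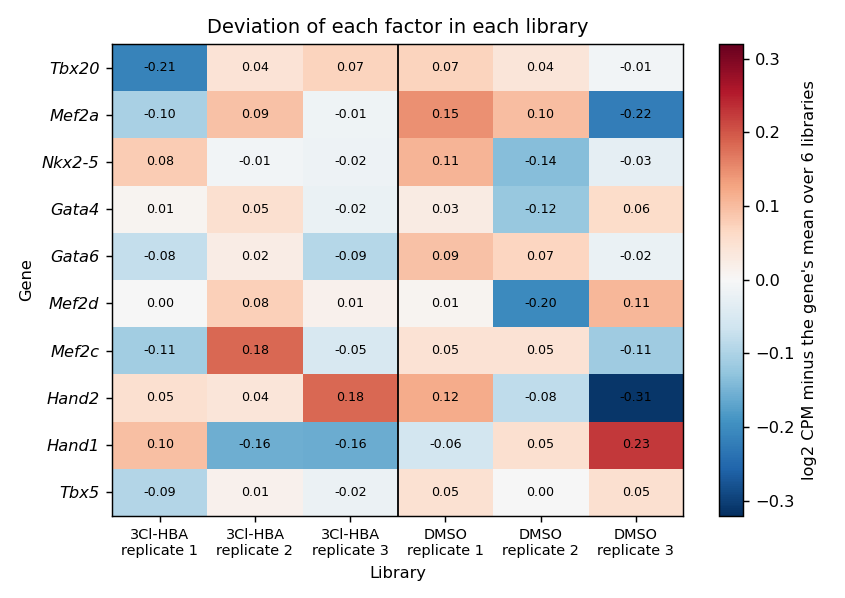
Log2 CPM of each factor in each library minus its own mean over the 6 libraries, with 3Cl-HBA left of the line and DMSO right of it, red above and blue below the mean. The deepest colours are in DMSO replicate 3, where Hand2 is 0.31 below and Hand1 0.23 above its mean.

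Libraries of the same treatment differed in how many factors lay above their own mean. In 3Cl-HBA replicates 1 to 3 these were 4, 8 and 3 of 10, with median deviations of -0.0389, 0.041 and -0.0172 on the log2 scale, and in DMSO replicates 1 to 3 they were 9, 5 and 4 of 10, with median deviations of 0.06, 0.0184 and -0.015. The coefficient of variation of CPM over the 6 libraries ran from 3.66% for Tbx5 to 11.9% for Hand2. For Tbx5 this was below the 6.87% that counting alone gives, and for Hand1 the values were 11% and 11.9%, so the spread of both was no larger than that from counting. Mef2a had 9.53% against 1.87% from counting and Tbx20 7.19% against 1.93%, so these varied between libraries by more than counting alone gives. The same held for Mef2c (8.11% against 2.88%), Mef2d (7.26% against 3.23%) and Nkx2-5 (6.02% against 3%). It also held for Gata6 (5.27% against 2.94%), Gata4 (4.52% against 1.9%) and, by less, Hand2 (11.9% against 9.96%). DMSO replicate 3 was the lowest library for 3 factors (Hand2, Mef2a and Mef2c) and the highest for 4 (Gata4, Tbx5, Hand1 and Mef2d), and DMSO replicate 1 was the highest for another 4. In 3Cl-HBA replicate 1, Tbx20 lay 0.21 below its mean on the log2 scale and Mef2c and Mef2a 0.11 and 0.10 below theirs.

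Genes with the profile most like each factor over the 6 libraries were found by the root mean square difference of log2 CPM, each gene centred on its own mean, among 11108 genes with a symbol and at least 5 CPM. For Gata4 this was Rhot2, a mitochondrial transport GTPase (0.0113, against 0.0609 for the spread of Gata4 itself), for Tbx20 Brwd3 (0.0125 against 0.0998), and for Nkx2-5 Acap3 (0.0159 against 0.0797). For Mef2a it was Zfp800 (0.0233 against 0.129), for Mef2c Malt1 (0.0173 against 0.105) and for Mef2d the nuclear pore gene Nup214 (0.0186 against 0.0993). Gata6 was nearest to the monoamine oxidase Maoa (0.0148 against 0.0693), Tbx5 to Rai1 (0.00932 against 0.0484), Hand1 to S100a13 (0.0306 against 0.139) and Hand2 to Rassf9 (0.0305 against 0.161). None of the 10 was the nearest gene of another. With 6 libraries and this many genes a close profile is easily found, and the matches are given as a description.

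Other heart transcription factors gave no call either. Of 27 listed, 24 were tested, 0 passed, and 13 of 24 lay above 0, with 0.00382 as the median log2 fold change. Among all genes tested, 49.8% lay above 0, with a median of -0.00051. Abundant members were Tead1, which partners YAP, at 39.6 ± 3.82 FPKM after 3Cl-HBA and 42 ± 4.24 FPKM in DMSO, and Srf, the serum response factor of muscle genes, at 26.6 ± 0.769 after 3Cl-HBA and 28.2 ± 0.615 in DMSO. At an unadjusted edgeR p under 0.05 there was 1 of 24, against 5.11% of all genes. It was Hey2, a Hairy-related repressor of the ventricle, at 4.098, 4.089 and 3.638 FPKM after 3Cl-HBA and 3.542, 3.225 and 2.825 FPKM in DMSO. Its treated libraries lay above the DMSO libraries by small steps (log2 fold change 0.303, SE 0.142, edgeR unadjusted p 0.039, adjusted p 0.959). That unadjusted p was 0.0805 with DESeq2, and 0.0843, 0.107, 0.0671 and 0.154 by edgeR without 3Cl-HBA replicate 1, 3Cl-HBA replicate 2, DMSO replicate 2 and DMSO replicate 3, with adjusted p of 0.818 to 1 over the 12 alternatives.

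A list of cofactors and repressors related to these factors, not all of which bind them directly, gave no call. Of 23 tested, 0 passed, 7 lay above 0 on the log2 scale, and the median log2 fold change was -0.0271. Over all genes tested, 49.8% lay above 0 and the median was -0.00051. The most abundant were Id3, an inhibitor of helix-loop-helix proteins, at 74.2 ± 8.27 FPKM after 3Cl-HBA and 75 ± 4.71 FPKM in DMSO, the muscle methyltransferase Smyd1 at 68.7 ± 3.08 after 3Cl-HBA and 71.7 ± 0.854 in DMSO, and Cited2, a coregulator that binds EP300, at 70.2 ± 2.51 after 3Cl-HBA and 61.8 ± 3.04 in DMSO. Of the 23, 3 (2 higher, 1 lower) had an unadjusted edgeR p under 0.05, against 5.11% of all genes, and are named for that p. The counts became 1 higher and 0 lower without 3Cl-HBA replicate 1, and 2 higher and 4 lower without 3Cl-HBA replicate 2. They became 1 higher and 3 lower without DMSO replicate 2. They were 1 higher and 1 lower both without 3Cl-HBA replicate 3 and with DESeq2. For the fits without a library the share of all genes is not given here, so 5.11% is no background for them. Cited2 had a log2 fold change of 0.187 (SE 0.0547, adjusted p 0.914), the helix-loop-helix inhibitor Id2 0.174 (SE 0.0795, adjusted p 0.959) and the acetyltransferase Ep300, a coactivator of GATA4 and MEF2, -0.223 (SE 0.084, adjusted p 0.959), all by edgeR. The class IIa deacetylases that repress MEF2 did not pass, and Hdac5, the most abundant, had 33.6 FPKM after 3Cl-HBA and 34.5 FPKM in DMSO.

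Heart muscle genes with known control sites for these factors were also tested. Of 25 listed and tested, 0 passed, 10 lay above 0 on the log2 scale, and the median log2 fold change was -0.00478. The values over all genes tested were 49.8% above 0 and a median of -0.00051. The most abundant were Nppa, at 3954 ± 349 FPKM after 3Cl-HBA and 4343 ± 174 FPKM in DMSO, cardiac actin Actc1 at 3397 ± 116 after 3Cl-HBA and 3335 ± 85.4 in DMSO, and cardiac troponin T, Tnnt2, at 2418 ± 94.1 after 3Cl-HBA and 2427 ± 128 in DMSO. Of the 25, 6 (0 higher, 6 lower) had an unadjusted edgeR p under 0.05, where 2.59% of all genes had such a p and were lower. They were Nppa, the slow myosin Myh7, the ventricular myosin light chain Myl2, the sodium-calcium exchanger Slc8a1, the calcium release channel Ryr2 and the L-type calcium channel Cacna1c. Their log2 fold changes ran from -0.169 for Ryr2 to -0.0971 for Myh7, and their edgeR adjusted p were 0.914 or 0.959. Over the 12 alternatives 2 to 7 genes of the list had such a p and were lower, with 2 without 3Cl-HBA replicate 1. Without DMSO replicate 3 there were 3 lower and 3 higher. For the alternatives the share of all genes that were lower with such a p is not given here. The 2.59% is therefore no background for those counts. With each library's length trend removed the count was 4, and Ryr2 moved to -0.108, as it did without 3Cl-HBA replicate 1. Nppa moved to -0.0675 without 3Cl-HBA replicate 2 and Myh7 to -0.0413 without DMSO replicate 3. The members of this list share cells and libraries and are not independent, and the list was not tested as a set.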

How the data were processed

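RNA-seq read counts and FPKM were taken from 1 deposited table of the whole series. The read counts are whole numbers per gene and library, not normalised, per the file headers. The FPKM were computed by the authors, per the file headers, and equal count over gene length and library total within a relative gap of 8.2e-08. Libraries were made with the KAPA RiboErase kit, and DESeq2 is named as the authors' tool, per the labels' protocols. For aligner, counting program, strand setting, genome build and annotation: not given in the sources used here. Columns were matched to treatments through the treatment protocol.

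The test on counts was that of edgeR 4.0.16 under R 4.3.3 (TMM scaling; genes kept by filterByExpr at 10 counts; glmQLFit in robust mode, then glmQLFTest; no block), over all 13903 genes kept, with Benjamini-Hochberg adjustment. Fold changes are log2 values of 3Cl-HBA over DMSO, and the SE is the absolute value over the square root of F. DESeq2 1.42.0, limma-voom (limma 3.58.1), library totals alone, no filter on low counts, a replicate block, removal of each library's length trend and leaving out each library were the alternatives. The procedure was tested on simulated counts. FPKM were described and not tested. Profiles used log2 CPM with a prior count of 2. Of 27, 24 and 25 genes on the 3 lists of related genes, 27, 23 and 25 matched a row. Always named were the 10 factors, the nearest profile of each, and in each list the 3 most abundant tested members and those with an unadjusted p under 0.05; 1 gene that this rule names is not reported here. Hdac5, Gata5 and other relatives were named after their values were seen. The 10 factors, the lists and the tests were chosen with earlier results of these data known.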

Additional observations from a re-analysis of the deposited data

How the results depend on the processing

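No factor passed under any of the 12 alternatives. Of 120 log2 fold changes, 9 changed sign, all when 1 library was left out, and the lowest adjusted p was 0.606. The turned values were -0.0307 for Gata4, -0.0255 for Nkx2-5 and -0.0286 for Mef2d without DMSO replicate 2, 0.0225 for Tbx20 without 3Cl-HBA replicate 1, -0.0763 and -0.0338 for Mef2c without 3Cl-HBA replicate 2 and DMSO replicate 3, and 0.0237, 0.0452 and 0.0196 for Mef2a without 3Cl-HBA replicate 1, DMSO replicate 1 and DMSO replicate 2. Without single libraries, values reached as far the other way as 0.0556 for Gata4, 0.0998 for Nkx2-5, 0.122 for Mef2d, -0.116 for Tbx20, 0.0776 for Mef2c and -0.13 for Mef2a, and -0.0946 for Id3 and -0.0373 for Tnnt2. Hand1 and Hand2 kept their signs and ranged from -0.241 to -0.0749 and from 0.0694 to 0.287. Among related genes, Id3 turned to 0.059 and 0.0365 without 3Cl-HBA replicate 2 and DMSO replicate 3, and Tnnt2 to 0.014, 0.00407 and 0.0386 without 3Cl-HBA replicates 2 and 3 and DMSO replicate 3. The count of genes called over the whole table, 0, became 2 with no filter on low counts and ranged from 0 to 8 when single libraries were left out; the cause was not tested. The median of the 10 ranged from -0.0759 to 0.0432. With the replicate block 0 of 10 factors and 0 genes in all were called and the median was -0.000102. The labels do not say that numbers pair libraries, and same-numbered libraries had correlations of -0.0692, -0.0438 and -0.0447. Among genes kept by the filter on low counts alone, percentiles of FPKM were lower, for example 93.6 against 95.1 for Tbx20 and 28.3 against 45 for Tbx5. Depth limits Hand1 and Hand2 most, and changes within each factor's 95% interval were not excluded.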
